A study of Equus caballus with 6 samples.

Results

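A set of 10 genes of the piRNA pathway, PIWIL1, PIWIL2, PIWIL4, MAEL, DDX4, TDRD1, TDRD6, TDRD9, TDRKH and MOV10L1, were followed in the testes of stallions given dexamethasone or saline. They were found as the array probes to which the platform's annotation gives exactly 1 of these symbols. Each of the 10 genes had 1 such probe, so the set is 10 probes and 10 genes of 18278 genes that the annotation names. The study compared testicular parenchyma, the tubules with the interstitial tissue around them, of 6 adult stallions that had been fed hay and horse feed and kept in the clinic for 10 days. In the dexamethasone group 3 stallions received 0.1 mg/kg of this synthetic glucocorticoid intravenously, and in the control group 3 stallions received saline in the same volume. Testes were collected 12 h after injection. No strain or genotype is given in the labels, and ages are given only as adult. Total RNA of each animal was read on 1 CodeLink array with probes designed for human transcripts, so a probe may bind its horse transcript poorly and a weak spot does not show weak expression.

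piRNAs are small RNAs of the germ line that guide PIWI proteins, a branch of the Argonaute family, to transposon transcripts and other targets. Precursors are unwound and handed to the processing sites by the helicase MOV10L1, trimmed at the mitochondrial surface and amplified by reciprocal cutting in the nuage, a germ granule where Tudor proteins hold PIWI proteins by their methylated arginines. In the mammalian testis the pathway works in fetal prospermatogonia, spermatogonia, spermatocytes and round spermatids, and mice that lack its core members arrest in spermatogenesis.

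The probes of 5 of the 10 genes, PIWIL1, MAEL, TDRD6, TDRD9 and MOV10L1, were above background on all 6 arrays. The probe of PIWIL2 was above background on 1 array, and those of PIWIL4, DDX4, TDRD1 and TDRKH on 0. Above background here means a usable spot without the flag L. The files do not explain that flag, and it was read as near background because the signal strength, the spot mean divided by the spot's own noise level, was at most 1 in every spot of the 6 files that carries it. For these 10 probes all spots without the flag had a signal strength above 1. Over all 53423 gene probes, 35.1% were above background on all 6 arrays and 44.5% on 0, and over the 23472 probes with 1 symbol the shares were 39.3% and 38.7%. The members, at 5 and 4 of 10, lay close to these shares. All 10 symbols, those of the 5 dim members included, are also listed among the RefSeq genes of the horse. All 60 member spots had usable values, with no flag other than G or L.

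**Figure D1:**
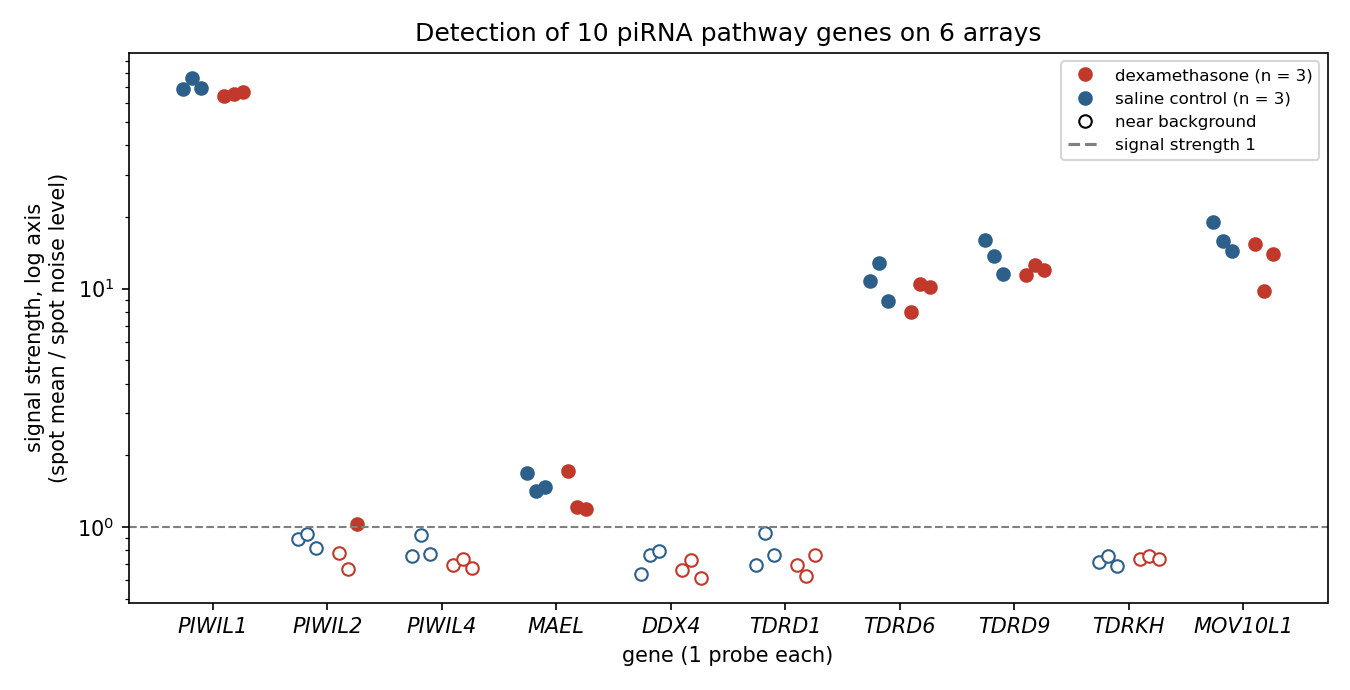
Signal strength (spot mean over spot noise level, log axis) of the 10 piRNA pathway probes, 1 point per stallion, with saline controls in blue, dexamethasone in red and open points for spots near background. The probes of PIWIL1, MAEL, TDRD6, TDRD9 and MOV10L1 lie above 1 in all 6 stallions, while PIWIL2 passes 1 in 1 stallion and PIWIL4, DDX4, TDRD1 and TDRKH in none.

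The arrays had median spot intensities of 72.6 to 79.4 over median local backgrounds of 47 to 50, and 42.5% to 47.8% of gene probes were above background per array. Dexamethasone replicate 2 had the fewest probes above background (22690) and the most spots flagged C, I or P, letters the files do not explain (1189, against 320 to 807 on the others). Of the 94 control probe names printed several times on each array, 92 were higher in the dexamethasone group after median scaling, by a median of 0.09 and by at most 0.54 on the log2 scale. Germ cell markers were read on the same arrays. Of the spermatogonial markers with a probe, 11 of 15 were above background on all 6 arrays, among them DAZL, KIT and DMRT1. For spermatocytes it was 9 of 15, among them SYCP1, DMC1 and MSH4, and for spermatids 9 of 16, among them ACRV1, ODF2 and CAPZA3. The probes of TNP1 and PRM2, which encode abundant nuclear proteins of spermatids, were above background on 0 arrays.

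The comparison of dexamethasone with saline asked whether the testicular levels of these genes differ 12 h after the glucocorticoid. No piRNA pathway gene passed the test. Of the 5 tested members, 0 passed limma's adjusted p of 0.05 and 0 had an unadjusted p under 0.05. Over all 24590 probes tested, 1 passed the adjusted threshold (0.00407%) and 808 the unadjusted one (3.29%). The differences of the 5 members were small, from -0.21 to -0.02 on the log2 scale, and limma's adjusted p was 0.999 for each. All 5 differences lay below 0, where 52.5% of all tested probes did. Their median was -0.06, beside -0.01 over all tested probes. The average of the 5 members had an SD of 0.0429 between stallions of a group. The direction over all probes depends on the scaling. With median scaling 77.2% of all tested probes lay below 0 and with the authors' scaled intensity 66.3%. The median of the 5 members was then -0.20 and -0.16, and that of all tested probes -0.08 and -0.07.

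**Figure D2:**
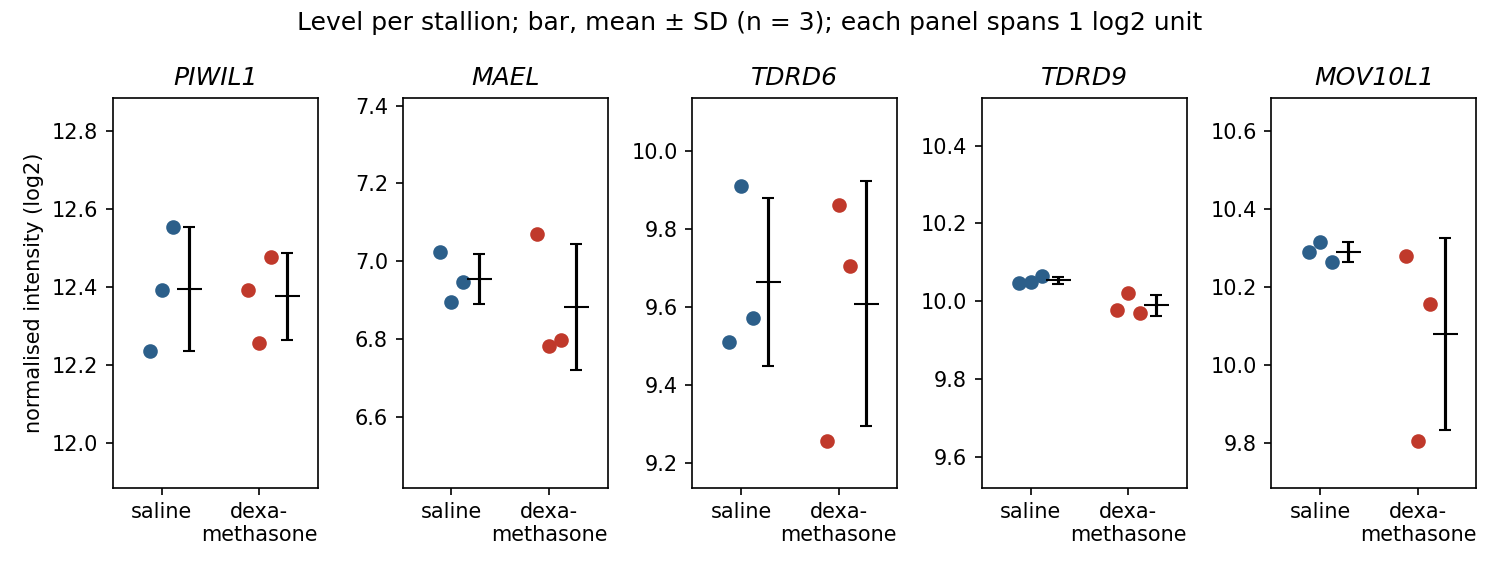
Normalised intensity (log2) of the 5 tested members in each stallion, saline in blue and dexamethasone in red, with the mean and SD of each group of 3, in panels that each span 1 log2 unit. The groups overlap for PIWIL1, MAEL, TDRD6 and MOV10L1, and for TDRD9 all 3 dexamethasone values lie just below the 3 saline values.

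PIWIL1, the PIWI protein of pachytene spermatocytes and round spermatids, gave a bright and even signal. Its spot was 102 to 121 times the local background. Normalised levels, which are log2 of background-corrected and quantile-normalised intensity, were 12.24, 12.39 and 12.55 in the saline stallions and 12.39, 12.26 and 12.48 in the dexamethasone stallions. The 2 groups covered nearly the same range. Their means were 12.39 ± 0.16 and 12.38 ± 0.11 (SD, n = 3 each), and the difference of -0.02 ± 0.10 (SE) had a 95% interval from -0.25 to 0.22. Spot means before background correction and normalisation, which carry the brightness of each array, were 5646, 5654 and 5588 in the saline group and 5054, 4676 and 5216 in the dexamethasone group, without overlap. On that scale 14.9% of all tested probes were lower with dexamethasone without overlap. On the authors' scaled intensity, at 204 ± 21.03 against 194 ± 20.4 (SD, n = 3 each), the groups overlapped again. The sign of the PIWIL1 difference was positive in 5 of 19 alternative settings and values, with a range from -0.14 to 0.06.

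PIWIL2, which acts earlier in the germ line and loads primary piRNAs, had spots of 1.16 to 1.64 times the local background. Its one spot above background was that of dexamethasone replicate 3, with a signal strength of 1.03. The other 2 dexamethasone values, 0.778 and 0.667, lay below the 3 saline values, which were 0.894, 0.940 and 0.819. PIWIL4, the nuclear PIWI protein that directs DNA methylation of transposons in fetal germ cells, had spots of 1.11 to 1.51 times background and signal strengths of 0.674 to 0.932. The PIWIL4 spots, none above background, had normalised levels of 6.07, 6.25 and 6.04 in saline and 5.89, 5.88 and 5.99 in dexamethasone stallions, which did not overlap. Over all tested probes 5.07% were lower with dexamethasone without overlap. The share among probes near background was not taken, so this separation is not a result about PIWIL4. Neither gene was in the main test, and no fold is given because both groups were near background.

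MOV10L1, the helicase that binds piRNA precursors, showed the lowest of the 5 differences. Normalised levels were 10.29, 10.32 and 10.26 in the saline stallions and 10.28, 9.80 and 10.16 in the dexamethasone stallions. The saline values were close together, dexamethasone replicate 1 lay among them, and dexamethasone replicate 2 lay far below. The group means were 10.29 ± 0.03 and 10.08 ± 0.25 (SD, n = 3 each). The difference was -0.21 ± 0.12 (SE), with a 95% interval from -0.48 to 0.06, an unadjusted p of 0.110 in limma and an adjusted p of 0.999. Without dexamethasone replicate 2 the difference was -0.07. Without dexamethasone replicate 1 it was -0.31, with a limma unadjusted p of 0.0262 and an adjusted p of 0.9996. In that fit 870 of 23111 tested probes had an unadjusted p under 0.05. Dexamethasone replicate 2 is the array with the fewest probes above background, and the part of this in the result was not tested. On the authors' scaled intensity MOV10L1 stood at 47.3, 46.4 and 46.1 in saline and 40.4, 30.7 and 42.8 in dexamethasone stallions, without overlap. On that scale 66.3% of all tested probes lay below 0, and 7.72% were lower without overlap. With median scaling the MOV10L1 difference was -0.36, with a limma unadjusted p of 0.0223 and an adjusted p of 0.659. With that scaling 1798 of 24590 tested probes had an unadjusted p under 0.05, against 808 in the main fit.

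DDX4 (VASA), the other helicase with a long history as a germ cell marker, was near background on all 6 arrays. Its spots were 1.01 to 1.30 times the local background and its signal strengths 0.616 to 0.794. The germ cell marker DAZL, an RNA-binding protein, was above background on all 6 arrays by 1 of its 2 probes, and DDX4 itself was not in the main test.

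Among the Tudor proteins TDRD9, a helicase with a Tudor domain that works with PIWI proteins in transposon silencing, was the most even of the 5 tested members. Normalised levels were 10.05, 10.05 and 10.06 in saline and 9.98, 10.02 and 9.97 in dexamethasone stallions. All 3 dexamethasone values lay below all 3 saline values, by a narrow margin. The means were 10.05 ± 0.01 and 9.99 ± 0.03 (SD, n = 3 each), a difference of -0.06 ± 0.08 (SE) with a 95% interval from -0.24 to 0.11 and an unadjusted p of 0.427 in limma. This SE exceeds both SDs because limma draws the spread of each probe towards a value estimated over all tested probes. TDRD9 was the 1 tested member of 5 whose groups did not overlap. Over all tested probes 9.27% did not overlap, 5.07% with dexamethasone lower, so 1 of 5 is not a result about the members. On the authors' scaled intensity, 7.72% of tested probes had non-overlapping groups with dexamethasone lower, and both TDRD9 and MOV10L1 were among them. The scaled TDRD9 values were 40.0, 38.2 and 39.9 in saline and 32.3, 36.1 and 37.0 in dexamethasone stallions. With median scaling TDRD9 differed by -0.23, with a limma unadjusted p of 0.0407 and an adjusted p of 0.659. With that scaling 1798 of 24590 tested probes had an unadjusted p under 0.05.

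TDRD6, a protein of the chromatoid body of spermatids, varied most between stallions. Normalised levels were 9.51, 9.91 and 9.57 in saline and 9.26, 9.86 and 9.71 in dexamethasone stallions. The highest value was saline replicate 2 and the lowest dexamethasone replicate 1, with the other 4 between them. The difference was -0.06 ± 0.16 (SE), with a 95% interval from -0.41 to 0.30, and it was 0.12 without dexamethasone replicate 1 and 0.07 without saline replicate 2.

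TDRD1, a nuage protein that binds PIWIL2, and TDRKH, which sits on mitochondria and brings PIWI proteins to the trimming enzyme, were near background. TDRD1 had signal strengths of 0.624 to 0.950 and TDRKH of 0.689 to 0.762. TDRKH spots were 1.12 to 1.28 times the local background, and neither gene was in the main test.

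MAEL, a nuage protein needed for transposon silencing, was the dimmest member that was detected, at 2.003 to 2.92 times background. Normalised levels were 7.02, 6.90 and 6.95 in saline and 7.07, 6.78 and 6.80 in dexamethasone stallions. The highest value and both of the lowest were in the dexamethasone group, around the saline values. The difference was -0.07 ± 0.10 (SE), with a 95% interval from -0.30 to 0.15. It was -0.17 without dexamethasone replicate 1, and -0.02 and -0.03 without dexamethasone replicates 2 and 3. Without saline replicate 1 it was -0.04. With background subtraction it was -0.14, with median scaling -0.11 and with the authors' scaled intensity -0.16. With a lower offset (16) added in background correction, the MAEL difference was -0.10. The part of the offset in the values under the other settings was not tested.

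**Figure D3:**
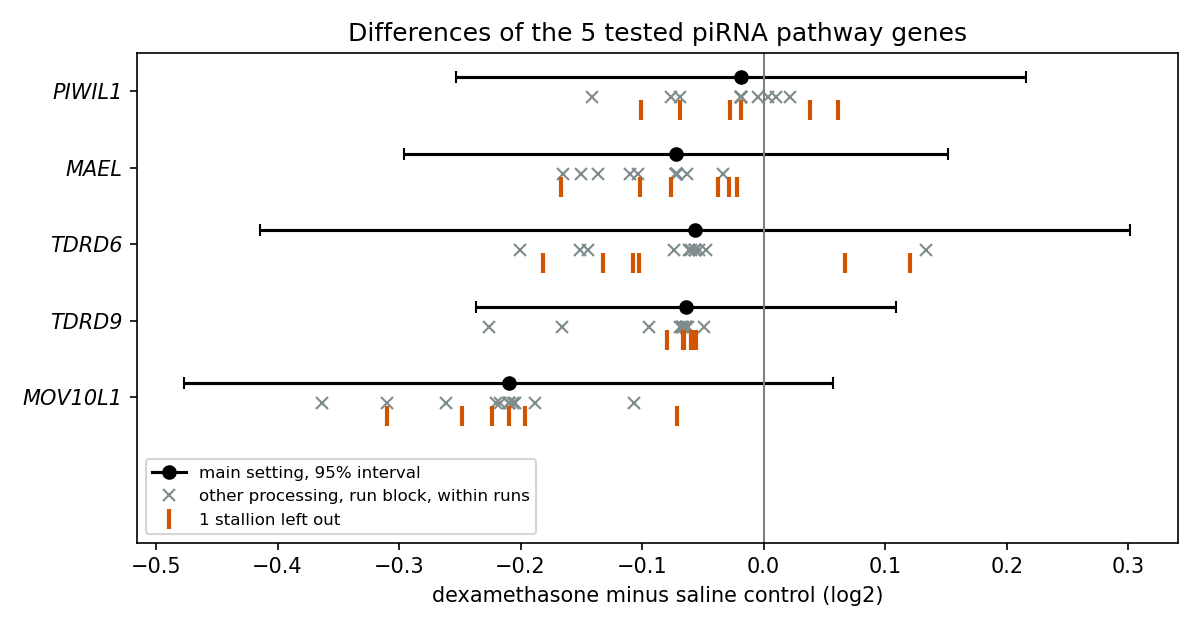
Difference between dexamethasone and saline stallions (log2) for the 5 tested members, with the main value and its 95% interval as a black point and bar, other processing settings as crosses and values with 1 stallion left out as orange ticks. Every interval holds 0. The values of PIWIL1 and TDRD6 fall on both sides of 0, and MOV10L1 reaches from -0.36 to -0.07.

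The 5 tested members ranked the stallions differently. MAEL and TDRD6 ran opposite to each other (Pearson r = -0.83 over the 6 stallions), with MAEL highest and TDRD6 lowest in dexamethasone replicate 1. MAEL and MOV10L1 had r = 0.70, and PIWIL1 had r between -0.10 and 0.38 with each of the others. These values are a description over 6 animals that share 2 treatments. Averaged over the 5 members, the deviation from each gene's mean was -0.01, 0.08 and 0.05 in the saline stallions and -0.03, -0.08 and -0.01 in the dexamethasone stallions. Saline replicate 1 and dexamethasone replicate 3 were level on this average. TDRD6, the member with the widest range (0.65), was most like a probe of DNAJC25-GNG10 (Pearson r = 0.99 over 6 stallions), followed by GIMAP5, IMPACT, DNAJB13 and ATP6AP2 (0.99 each). They were the first 5 by r of 11010 probes with 1 symbol and 6 usable values, of which 138 had r above 0.9.

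**Figure D4:**
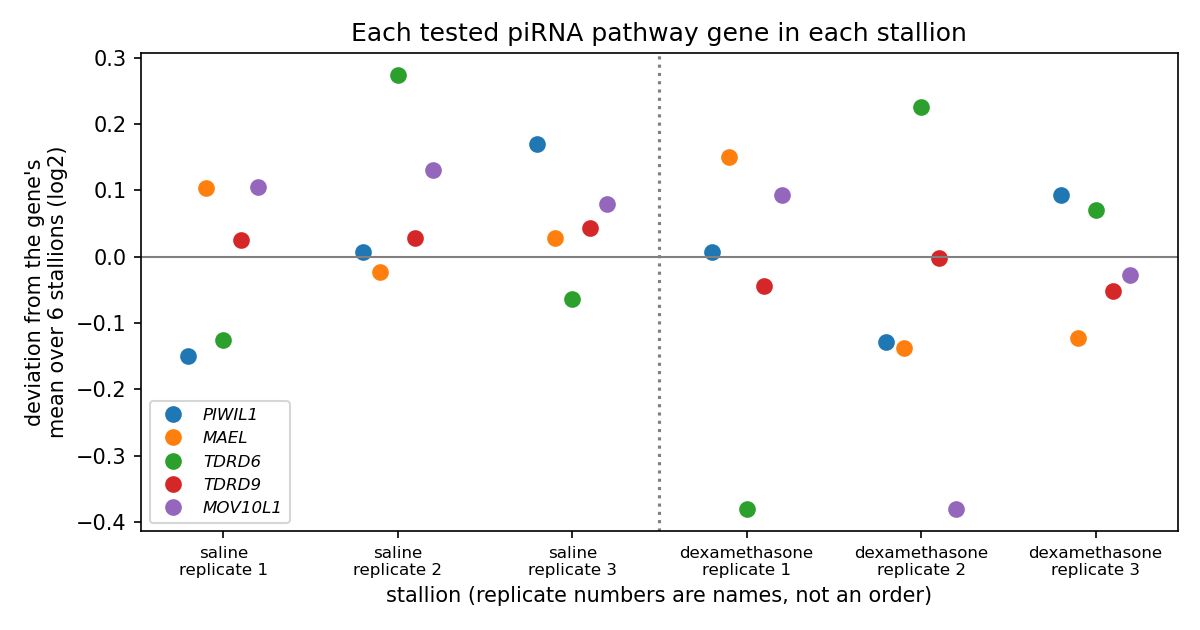
Deviation of each tested member from its own mean over the 6 stallions (log2), saline on the left and dexamethasone on the right of the dotted line, 1 colour per gene. TDRD6 in dexamethasone replicate 1 and MOV10L1 in dexamethasone replicate 2 lie farthest below 0, and the 5 genes do not rank the stallions alike.

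The summed levels of the germ cell marker lists overlapped between the groups. The summed normalised intensity of 9 spermatocyte genes was 3759 to 4724 in dexamethasone and 3897 to 4534 in saline stallions. It was 14395 to 16895 against 13119 to 15546 for 10 spermatid genes, and 4972 to 5662 against 5053 to 5389 for 12 spermatogonial genes. Of the tested spermatocyte genes 7 were lower and 2 higher, with a median of -0.12. Spermatogonial genes were 5 lower and 7 higher with a median of 0.03, and spermatid genes 5 lower and 7 higher with a median of 0.04, and none of these genes passed the adjusted test. Of the somatic lists, the Leydig and peritubular myoid sums, each of few complete genes, were lower with dexamethasone without overlap. Of single tested probes 5.07% were lower without overlap, and no such share was taken for sums. The Sertoli, endothelial, macrophage, lymphocyte and erythrocyte sums overlapped. The sum of 3 Leydig cell genes was 5360 to 5799 against 6080 to 7074, and that of 2 peritubular myoid genes was 417 to 441 against 474 to 487. The 3 Leydig cell genes differed by -1.21 (INSL3), -0.08 (LHCGR) and 0.01 (STAR), and the 2 myoid genes by -0.22 (MYLK) and -0.02 (ACTA2). These are the values of the brightest tested probe of each gene. For INSL3 a dimmer tested probe gave a smaller drop, -0.52, and its groups overlapped. Dimmer tested probes of STAR gave -0.12 and 0.19, and that of MYLK gave -0.21, all with overlapping groups. Of all 6 tested Leydig cell genes 3 were lower and 3 higher, with a median of -0.04. The part of these sums in the members' values was not tested. In whole tissue, fewer cells of a type and less RNA per cell cannot be told apart.

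Other genes of the pathway, with the Argonaute and microRNA genes beside them, made a list of 44, of which 40 had a probe and 28 were tested. Of these 28, 14 were higher and 14 lower with dexamethasone, 0 passed limma's adjusted p, 0 had an unadjusted p under 0.05, and the median difference was 0.00. With median scaling 3 were higher and 25 lower, and with the authors' scaled intensity 10 and 18, and with either still none passed the adjusted test. Of the 40 genes with a probe, 10 were above background on 0 arrays, among them the Tudor gene TDRD5, the nuage scaffold gene ASZ1, GPAT2 and FKBP6. The 10 include TDRD3 and DNMT3L, whose probes had 0 usable values in either group and so were not measured.

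**Figure D5:**
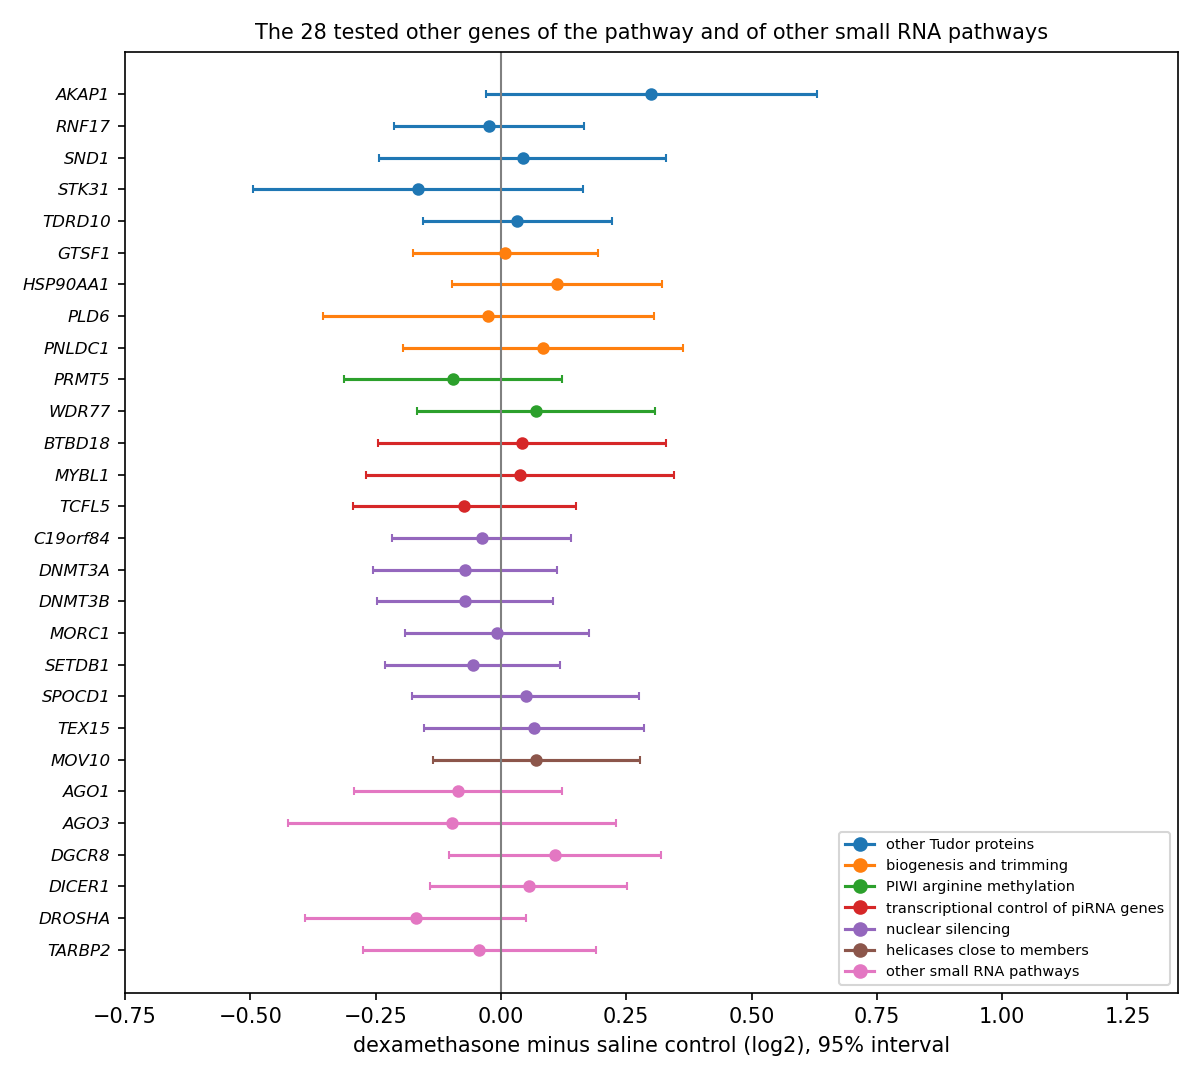
Difference between dexamethasone and saline stallions (log2) with its 95% interval for the 28 tested genes of the list, 1 probe per gene, coloured by role. Points lie on both sides of 0, 14 higher and 14 lower, and every interval holds 0.

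Other Tudor and nuage proteins were 3 higher and 2 lower of 5 tested. AKAP1, a mitochondrial anchor protein with a Tudor domain, differed by 0.30 ± 0.15 (SE), at 7.83 against 7.53, with an unadjusted p of 0.0707 in limma and groups that overlapped. A fit with slide run as a block gave 0.30 ± 0.13 (SE), with an unadjusted p of 0.0493 and an adjusted p of 0.998 in limma. Within the runs it was 0.50 (2 stallions against 2) and -0.10 (1 against 1). Its difference was 0.15 once dexamethasone replicate 2 was left out. With dexamethasone replicate 3 left out instead it was 0.49, with a limma unadjusted p of 0.00116 that did not pass adjustment. The probes of RNF17, a germ cell Tudor protein, differed by 0.17, 0.10 and -0.02, and STK31 by -0.17 ± 0.15 (SE). A dimmer probe of TDRD10 had all 3 dexamethasone values above the 2 usable saline values, at 0.15 ± 0.09 (SE), while the brighter one differed by 0.03. Such a separation is easier with 2 values in a group, and 9.27% of all tested probes had groups without overlap.

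In processing and trimming, 3 of 4 tested genes were higher and 1 was lower. GTSF1, a small zinc finger protein that helps PIWI proteins cut their targets, was at 13.92 against 13.91, a difference of 0.01 ± 0.08 (SE). PNLDC1, the trimming enzyme, differed by 0.08 ± 0.12 and PLD6, the mitochondrial nuclease, by -0.03 ± 0.15 (SE). The brighter probe of HSP90AA1, a chaperone in PIWI loading, differed by 0.11 ± 0.09 (SE) and its dimmer probe by -0.06.

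PRMT5, which methylates the arginines of PIWI proteins that Tudor domains bind, differed by -0.10 ± 0.10 and its partner WDR77, with 2 usable dexamethasone values, by 0.07 ± 0.10 (SE). With median scaling PRMT5 was the 1 gene of the 28 tested with an unadjusted p under 0.05 in limma. With that scaling 1798 of all 24590 tested probes had one, so this is not a result about PRMT5. MYBL1, the transcription factor that switches on pachytene piRNA genes, differed by 0.04 ± 0.14, TCFL5 by -0.07 ± 0.10 and BTBD18, also with 2 usable dexamethasone values, by 0.04 ± 0.13 (SE). Of the 7 tested genes of nuclear silencing 5 were lower and 2 higher. DNMT3B, a DNA methyltransferase, differed by -0.07 ± 0.08, and SETDB1, a histone methyltransferase, by -0.06 ± 0.08 (SE), with all 3 dexamethasone values of SETDB1 below the saline values. Over all tested probes 5.07% were lower without overlap. MOV10, the somatic relative of MOV10L1, differed by 0.07 ± 0.09 (SE).

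Of the Argonaute and microRNA genes 2 were higher and 4 lower. DROSHA, the nuclear microRNA nuclease, differed by -0.17 ± 0.10 (SE), with a limma unadjusted p of 0.116. Its partner DGCR8 differed by 0.11 ± 0.09 (SE), with all 3 dexamethasone values above the 2 usable saline values. Groups did not overlap in 9.27% of all tested probes, and 3 values against 2 separate more easily than 3 against 3. Over the alternatives DROSHA ranged from -0.33 to -0.10 and DGCR8 from 0.06 to 0.21.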

How the data were processed

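The deposited scanner files of 6 one-colour arrays give spot mean and background intensity, a signal-strength score and a scaled intensity. From the values, the authors' scaled intensity is the background-subtracted spot over 1 constant per array. Scanner software is not given in the sources used here, nor is the meaning of the flags. Spots flagged M had no value, and spots flagged C, I or P were treated as missing. The repeated control names and 631 blank spots were left out after normexp correction (offset 50). Quantile-normalised log2 values were tested with limma 3.58.1 (R 4.3.3; lmFit and eBayes, two-sided, Benjamini-Hochberg) over the probes above background on at least 3 arrays with at least 2 values per group. Names came from the platform annotation, which names 1 gene for 23472 probes, several for 905 and does not list 29046. The brightest tested probe stood for a gene of a list. Named were all members, and of each role the gene with the smallest p and those past unadjusted p or without overlap. Other genes of the list (GTSF1, PNLDC1, PLD6, MYBL1, BTBD18, RNF17, STK31, TDRD10, WDR77) were added for their roles after their values were seen. Likeness was Pearson r with the member of widest range.

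Members, lists and alternatives were chosen with earlier results of these data known. Groups came from the labels. Replicate numbers follow the order of the samples and pair no stallions. limma's SE, intervals and p-values rest on the spread between 3 animals per group, which eBayes draws towards a value estimated over all tested probes. An exact two-sided permutation test of 3 against 3 cannot go below 0.1. Slide numbers form 2 runs (2 dexamethasone and 2 control arrays, then 1 of each). The test was also run on simulated data with independent noise, no missing values and no effect of slide run. The changes added there were larger than the members' differences, so that run says nothing about differences of the members' size. No probe or horse sequences were used here. Plots used matplotlib 3.10.9 (Python 3.11.15).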

Additional observations from a re-analysis of the deposited data

How the results depend on the processing

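No member and no other gene of the list passed limma's adjusted p in any of the 17 alternative fits. The signs of MAEL, TDRD9 and MOV10L1 held in all 19 alternatives, which add the values within each of the 2 slide runs. Of 95 member values 8 changed sign. PIWIL1 was 0.0213 with cyclic loess, 0.00378 with array weights and 0.0105 within slide run 1, and it ran from -0.101 to 0.0611 without each stallion in turn, above 0 without dexamethasone replicate 2 or control replicate 3. TDRD6 was 0.133 within slide run 2 and ran from -0.182 to 0.121 without each stallion in turn, above 0 without dexamethasone replicate 1 or control replicate 2. The members' median was -0.20 with median scaling and -0.16 with the authors' scaled intensity, and the cause was not tested. It was -0.10 to -0.06 without each stallion in turn. Members with an unadjusted p under 0.05 numbered 0, but 2 (MOV10L1 and TDRD9) with median scaling and 0 to 1 without each stallion in turn (MOV10L1 without dexamethasone replicate 1). Over all 24590 tested probes such calls by limma numbered 1798 with median scaling, against 808 in the main fit. Without dexamethasone replicate 1 they numbered 870 of 23111. Probes past adjusted p over the whole array numbered 1, and 0 with background subtraction, with eBayes set to trend and robust, or with probes above background on all 6 arrays only. They numbered 0 to 1 without each stallion in turn (0 without control replicate 1 or 3). With the slide run as a block MOV10L1 was at -0.21 (limma unadjusted p = 0.129), and within the runs at -0.26 and -0.11. AKAP1 was the 1 other gene of the list with an unadjusted p under 0.05 in that fit, against 0 without the block. Without dexamethasone replicate 2 the 1 such gene was AGO3, and without dexamethasone replicate 3 it was AKAP1. Over all tested probes such calls numbered 845 of 24590 with the block. They numbered 973 of 23570 without dexamethasone replicate 2 and 1054 of 23093 without dexamethasone replicate 3. No paired analysis was possible because the labels give no replicate numbers that the groups share. The fit without the filter on background also took in the 5 members that were not in the main test. They differed by -0.20 (PIWIL4), -0.14 (DDX4), -0.13 (TDRD1), -0.07 (PIWIL2) and 0.03 (TDRKH). The lowest limma unadjusted p was 0.0631, for PIWIL4. Signal near background limits all 5 values.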
